A study of Mus musculus with 12 samples.

Results

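The genes described here are 9 members of the hepatic pathway of de novo lipogenesis, the synthesis of fatty acids from carbohydrate: Acly, Acaca, Acacb, Fasn, Elovl6, Scd1 and Gpam, which encode enzymes, and Thrsp and Mlxipl, which encode regulators. They were chosen by name, as listed genes of the pathway, and each was found in the gene-level count tables, so they are 9 of 24062 genes in those tables and 9 of the 12481 genes that passed the filter on low counts (counts scaled to library size, CPM, of 1 or more in at least 2 of 12 mice). RNA from the liver of 12 female C57BL/6J mice was sequenced to ask how inhibition of lanosterol synthase, an enzyme of cholesterol synthesis, alters gene expression. All mice were 6 weeks old on arrival, were acclimated for 2 weeks and ate the control diet for 3 days before the experiment. The control group (n = 6) then stayed on that diet for 10 days, and the BIBB-515 group (n = 6) received for the same 10 days a matched diet that contained BIBB-515, an inhibitor of lanosterol synthase, dosed at 55 mg per kg body weight. Mice are numbered as in the labels, control 1 to 6 and BIBB-515 6 to 11, and the labels do not say which mice shared a cage, nor give a batch or collection time. The study drew blood after some hours of fasting, and the labels do not give the feeding state of the mice when the liver was taken. Total counts lay between 22764819 and 27914647 per library in control mice and between 24223939 and 31058370 in BIBB-515 mice.

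In the liver, citrate exported from mitochondria is cleaved to acetyl-CoA, which is carboxylated to malonyl-CoA and then condensed by fatty acid synthase into palmitate. Palmitate is elongated and desaturated to oleate and built into triglycerides and phospholipids. The genes of this pathway are induced together by feeding, through SREBP-1c, which responds to insulin, and through ChREBP, which responds to glucose and is encoded by Mlxipl, and they are turned down by fasting.

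A pair of control libraries stood apart on measures that bear on these genes. Control mouse 3 had the highest level of the 12 mice for 8 of the 9 members, the exception being Mlxipl, which was highest in control mouse 4; over all tested genes, control mouse 3 was the highest mouse for 12.7%. The members together took 6.96% of all counts in control mouse 3, between 1.57% and 3.67% in the other control mice and between 1.28% and 2.92% in BIBB-515 mice. Control mouse 4 differed from the rest in the coverage of long transcripts. Reads per base in the 5′ part of the Fasn exons, divided by reads per base in the 3′ part, were 0.134 in control mouse 4, at least 0.308 in every other control mouse (median of the 6 control mice 0.379, highest 0.463), and between 0.270 and 0.429 in BIBB-515 mice (median 0.378). The same ratio for Acly was 0.383 in control mouse 4, with a control median of 0.654, and between 0.535 and 0.748 in BIBB-515 mice. Control mouse 3 was near the upper end of its group for this ratio, at 0.448 for Fasn and 0.716 for Acly. The part that the coverage of control mouse 4 plays in the results was not tested. The fit without control mouse 4 gave the members log2 fold changes between -0.98 (Acaca) and 0.25 (Thrsp). In it, 0 members were called at a false discovery rate under 0.05 in edgeR, beside 1619 of all genes tested in that fit. At an unadjusted p under 0.05 in edgeR there was 1 member, Acacb. The share of all genes at that threshold was not counted in this fit, and with all 12 mice it was 29.7%. The values without control mouse 3 are given for each member.

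With all 12 mice and diet alone in the fit, none of the 9 members was called. A false discovery rate (FDR, Benjamini-Hochberg over all tested genes) under 0.05 was reached by 0 members in edgeR's quasi-likelihood test, DESeq2 or limma-voom. A fit of all 12 mice with an added covariate, described below, called 3 members lower. With diet alone, edgeR called 13.7% of all tested genes in either direction and 6.48% in the lower direction. At an unadjusted p under 0.05, 2 members were counted, Acaca and Acacb, against 29.7% of all tested genes. For 8 members the fold change pointed to a lower level with BIBB-515 and for Thrsp to a higher one. The ranges of the 2 diets overlapped for all 9 members, whereas 7.07% of tested genes had no overlap. The summed level of the members was lowest at 16678 CPM, had a median of 27739 CPM and was highest at 69679 CPM in control mice, and was 12636, 24926 and 29444 CPM in BIBB-515 mice. The control mean of this sum without control mouse 3 was 25204 ± 8414 CPM (SD, n = 5), beside 32616 ± 19655 CPM (SD, n = 6) with it and 22473 ± 6825 CPM (SD, n = 6) in BIBB-515 mice. Most of the sum was Scd1. With Scd1 left out, the control mean was 4794 ± 1993 CPM without control mouse 3 (SD, n = 5) and 7017 ± 5729 CPM with it (SD, n = 6). In BIBB-515 mice it was 4808 ± 1272 CPM (SD, n = 6). In RNA from whole liver, fewer cells of a type and less RNA per cell cannot be told apart. The p-values set the difference between diets against the spread between single mice.

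**Figure D1:**
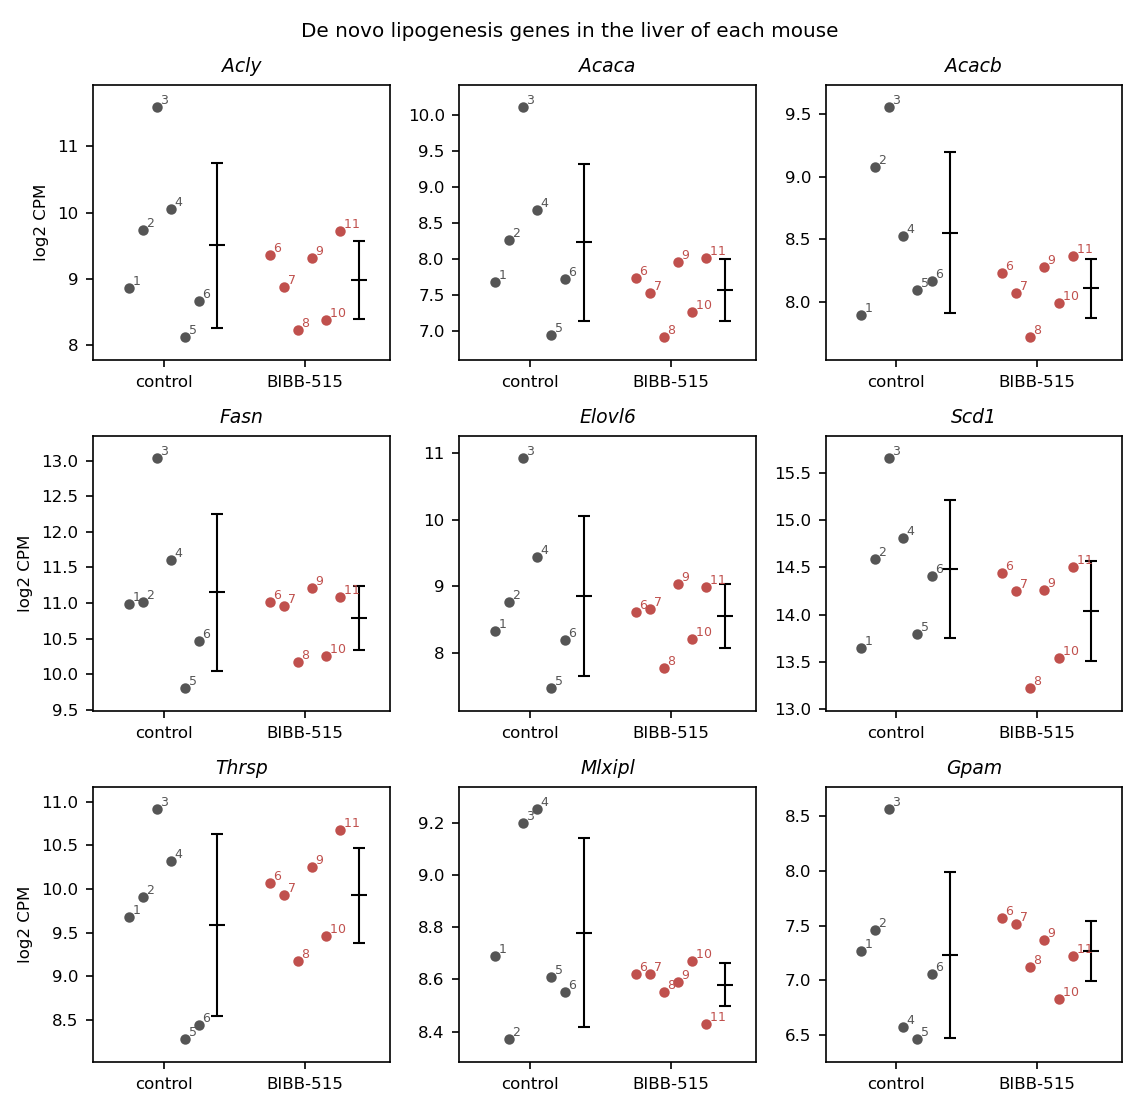
Level of each of the 9 members in log2 CPM (vertical axes, scaled separately) in every control mouse (grey) and BIBB-515 mouse (red), labelled with the number of the mouse; the dash and bar beside each group are its mean and SD (n = 6). Control mouse 3 was the highest of 12 mice in 8 panels, and the 2 diets overlapped in all 9.

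Acly, on chromosome 11 from 100476352 to 100528000 (mm10), encodes ATP citrate lyase, which makes the cytosolic acetyl-CoA that the pathway starts from. Its level was lowest at 276 CPM, had a median of 658 CPM and was highest at 3085 CPM in control mice, and was 299, 550.0 and 846 CPM in BIBB-515 mice. Control mouse 3 alone stood above 1068 CPM, the level of control mouse 4, and all 6 BIBB-515 mice lay inside the control range. Between diets, the log2 fold change was -0.93 (standard error 0.49, 95% interval -1.98 to 0.12, FDR 0.224 from edgeR). It was -0.18 without control mouse 3 (FDR 0.769 from edgeR).

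Acaca, on chromosome 11 from 84195438 to 84401651, and Acacb, on chromosome 5 from 114165518 to 114250758, encode the 2 acetyl-CoA carboxylases, which make malonyl-CoA; the product of Acaca feeds fatty acid synthesis in the cytosol, and that of Acacb, bound to mitochondria, restrains fatty acid oxidation. Acaca was lowest at 123 CPM, had a median of 259 CPM and was highest at 1098 CPM in control mice, against 120, 198 and 258 CPM in BIBB-515 mice. Control mouse 3 was again far above the others, BIBB-515 mouse 8 was just below the control range, and the other 5 BIBB-515 mice were inside it. For Acaca, edgeR gave a ratio of BIBB-515 over control of 0.4996 (95% interval 0.268 to 0.933, standard error 0.42 in log2, FDR 0.127), and the mean log2 CPM of the diets differed by -0.67 (two-sided exact permutation test over all labelings of the mice, p = 0.201). Acacb was lowest at 239 CPM, had a median of 328 CPM and was highest at 748 CPM in control mice, against 211, 284 and 332 CPM in BIBB-515 mice. Here control mice 2 and 3 were the high ones, at 541 and 748 CPM, and the remaining control mice lay among the BIBB-515 mice or just above them. For Acacb it gave a log2 fold change of -0.55 (standard error 0.24, 95% interval -1.07 to -0.04, FDR 0.141), with an exact permutation p of 0.160 for the mean log2 CPM. All 6 BIBB-515 mice were below the control mean of log2 CPM for both genes and for Mlxipl, which 20.0% of tested genes also showed in that direction. When control mouse 3 was left out, the log2 fold change was -0.35 for Acaca (FDR 0.413) and -0.28 for Acacb (FDR 0.333 from edgeR).

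Fasn, on chromosome 11 from 120805958 to 120824547, encodes fatty acid synthase, the enzyme that assembles palmitate. It was lowest at 892 CPM, had a median of 2046 CPM and was highest at 8368 CPM in control mice, against 1152, 2034 and 2376 CPM in BIBB-515 mice. The medians of the diets were thus close, control mice 3 and 4 lay above every BIBB-515 mouse, and control mouse 5 lay below every BIBB-515 mouse. Fasn had a log2 fold change of -0.70 (95% interval -1.61 to 0.21, standard error 0.43, FDR 0.292 from edgeR). Leaving out control mouse 3 moved it to -0.05 (FDR 0.929 from edgeR).

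Elovl6, on chromosome 3 from 129532386 to 129638493, encodes the elongase that turns palmitate into stearate. Its level was lowest at 176 CPM, had a median of 377 CPM and was highest at 1942 CPM in control mice, against 218, 397 and 524 CPM in BIBB-515 mice. All 6 BIBB-515 mice were inside the control range, with 4 of them below and 2 above the control mean of log2 CPM. Its difference between diets, -0.72 in log2 (95% interval -1.72 to 0.28, FDR 0.326 from edgeR), turned to 0.03 (FDR 0.959) without control mouse 3. Scd1, on chromosome 19 from 44394450 to 44407709, encodes the main stearoyl-CoA desaturase of liver, which makes oleate. It was lowest at 12829.7 CPM, had a median of 23171 CPM and was highest at 51548 CPM in control mice, against 9542, 19561 and 23198 CPM in BIBB-515 mice. BIBB-515 mice 8 and 10 were below the control range, the other 4 were inside it, and control mouse 3 was the highest. In edgeR, Scd1 differed by -0.54 in log2 (95% interval -1.21 to 0.13, FDR 0.275), and by -0.20 (FDR 0.647) without control mouse 3.

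Gpam, on chromosome 19 from 55069734 to 55099447, encodes the mitochondrial glycerol-3-phosphate acyltransferase, which takes the new fatty acids into glycerolipids. It was lowest at 88.2 CPM, had a median of 144 CPM and was highest at 377 CPM in control mice, against 113, 157 and 190 CPM in BIBB-515 mice. Control mouse 3 was the only control mouse above 176 CPM, and control mice 4 and 5 were below every BIBB-515 mouse. The log2 fold change was -0.13 (standard error 0.29, 95% interval -0.74 to 0.49, FDR 0.810 from edgeR), with an exact permutation p of 0.920 for the mean log2 CPM. Its sign depended on control mouse 3, without which it was 0.28 (FDR 0.312 from edgeR), and on the test, since limma-voom gave 0.04 with all mice.

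Of the regulators, Thrsp, on chromosome 7 from 97412957 to 97417510, encodes the thyroid hormone responsive protein Spot 14, a small nuclear and cytosolic protein that promotes lipogenesis. It was lowest at 310 CPM, had a median of 892 CPM and was highest at 1924 CPM in control mice, against 582, 1027 and 1634 CPM in BIBB-515 mice. Control mice 5 and 6, at 310 and 350 CPM, were below every BIBB-515 mouse, and control mouse 3 was above them all. The log2 fold change of 0.13 (standard error 0.39, 95% interval -0.69 to 0.95, FDR 0.857 from edgeR) was the only positive one among the 9 members with all mice, and it was 0.48 (FDR 0.402) without control mouse 3. It turned to -0.04 without control mouse 5, to -0.03 without control mouse 6 and to -0.05 without BIBB-515 mouse 11.

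Mlxipl, on chromosome 5 from 135106891 to 135138382, encodes the transcription factor ChREBP, which binds carbohydrate response elements in many of the other members. It was lowest at 332 CPM, had a median of 401 CPM and was highest at 610 CPM in control mice, against 344, 389 and 407 CPM in BIBB-515 mice. The control mice split into control mice 3 and 4, at 589 and 610 CPM, and 4 mice at or below 412 CPM among which the BIBB-515 mice lay. The log2 fold change was -0.24 (standard error 0.14, 95% interval -0.53 to 0.06, FDR 0.271 from edgeR). It was -0.14 (FDR 0.516) without control mouse 3 and -0.12 (FDR 0.553) without control mouse 4, the mouse with low 5′ coverage.

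The weight of single libraries lay mainly with control mouse 3. When each of the 12 mice was left out in turn, 0 members had an FDR under 0.05 in edgeR in any of the 12 fits, the closest being Acaca without control mouse 5, with a log2 fold change of -1.18 and an FDR of 0.0560. In the fit without control mouse 3, 0 of the 9 members were called in edgeR, beside 14.6% of the genes tested in that fit, and 6 members had a log2 fold change below 0 in place of 8. The median log2 fold change of the members was -0.55 with all mice and -0.14 without this mouse, and that of all tested genes was -0.01 with all mice. On the log2 scale the distance of control mouse 3 from its nearest neighbor was a smaller share of the control range, 0.438 for Fasn and 0.451 for Acaca, than on the CPM scale, on which it was 0.700 and 0.707. The fold change of edgeR compares means of counts, in which 1 high mouse weighs more than in a mean of log2 values: the mean log2 CPM of the diets differed by -0.37 for Fasn (exact permutation p = 0.506) and by -0.53 for Acly (exact permutation p = 0.403).

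**Figure D2:**
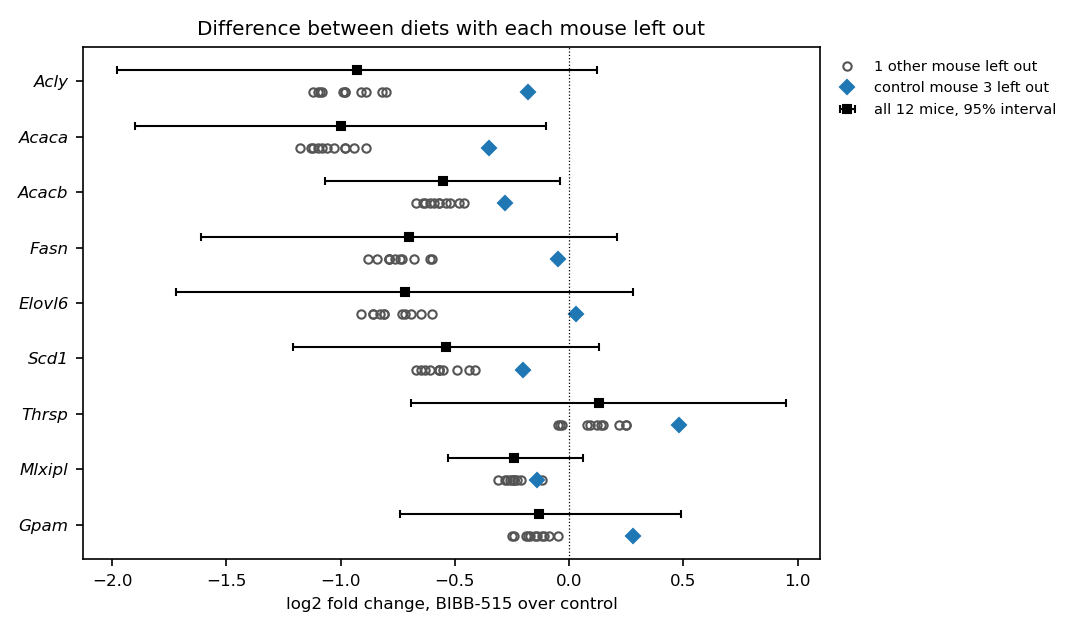
Log2 fold change of BIBB-515 over control (horizontal axis) for each member in the fit of all 12 mice (squares, with 95% intervals), in the fit without control mouse 3 (diamonds) and in the 11 fits that left out 1 other mouse (open circles). Elovl6 and Gpam turned from -0.72 and -0.13 to 0.03 and 0.28 without control mouse 3.

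Calls appeared in a single alternative, a fit with 1 surrogate variable, that is, a covariate estimated from the expression of all genes, the members included. There, 3 of the 9 members were lower with BIBB-515 at an FDR under 0.05 in edgeR, against 9.32% of all genes tested. They were Acly (log2 fold change -0.51, FDR 0.00424), Acaca (-0.67, FDR 0.00245) and Acacb (-0.46, FDR 0.0136), while Scd1 was at -0.45 (FDR 0.0735) and Thrsp at 0.34 (FDR 0.118). The standard error of Acly went from 0.49 to 0.11 and that of Acaca from 0.42 to 0.13. The covariate followed the members themselves: within diets its values had a Pearson r of 0.96 over 12 mice with the mean of the members' centred and scaled log2 CPM, which is given as a description with no test. It was highest in control mouse 3 (0.619) and lowest in control mouse 5 (-0.470), the mice that were highest and lowest for Fasn. The 3 calls therefore compare the diets at a matched value of a covariate made in part from these genes, and the other 7 alternatives that kept all mice called 0 members.

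The spread between mice was wide for these genes and wider in control mice. The SD of log2 CPM was larger in control mice for 9 of 9 members, beside 77.9% of all tested genes. Its median over the members was 1.04 in control mice and 0.45 in BIBB-515 mice, while the median over all tested genes was 0.20 and 0.13. The highest control mouse exceeded the lowest 11.2-fold for Acly, 11.1-fold for Elovl6 and 9.38-fold for Fasn, and 3.87-fold, 3.95-fold and 3.51-fold without control mouse 3, whereas in BIBB-515 mice these ratios were 2.83, 2.40 and 2.06. Mlxipl varied least, with an SD of log2 CPM of 0.36 in control mice and 0.08 in BIBB-515 mice. The SD was still larger in control mice for 8 of the 9 members without control mouse 3, with a median of 0.66. The median over all tested genes was then 0.19 in control mice and 0.13 in BIBB-515 mice, so a larger spread in control mice was not particular to the members. The share of all genes with a larger SD in control mice was not counted without control mouse 3.

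The covariation of the members was measured within each diet by setting 8 members against Fasn, 16 relations in all, each tested by exact permutation over 720 orderings and adjusted over the 16 (Benjamini-Hochberg). For r, 4 of the 8 relations had an adjusted value under 0.05 in control mice and 6 of the 8 in BIBB-515 mice; whether the diets differed in any relation was not tested. At an unadjusted exact p under 0.05 the counts were 5 and 6 of the 8, beside 13.0% of the other tested genes in control mice and 6.09% in BIBB-515 mice. In control mice, Elovl6 followed Fasn most closely (r = 0.99, rho = 1.00, exact p = 0.00139 for r and 0.00278 for rho, adjusted 0.0111 and 0.0148), and r was 0.92 without mice 3 and 5, the 2 farthest from the median of Fasn. Acly (r = 0.97, rho = 1.00), Acaca (r = 0.98, rho = 0.94) and Thrsp (r = 0.93, rho = 1.00) also had adjusted values of 0.0111 for r by the exact test, and without the same mice their r was 0.86, 0.84 and 0.93. Scd1 (r = 0.86, rho = 0.83), Acacb (r = 0.78, rho = 0.77), Gpam (r = 0.79, rho = 0.66) and Mlxipl (r = 0.74, rho = 0.54) had adjusted exact values for r between 0.0545 and 0.0873. Without those 2 mice, r was 0.37 for Scd1 and 0.29 for Acacb and turned to -0.56 for Gpam, while it was 0.78 for Mlxipl. With 4 mice and a narrower range of Fasn, these values cannot decide whether the relations rested on mice 3 and 5. With only control mouse 3 left out, r with Fasn was 0.97 for Elovl6, 0.94 for Acaca and Thrsp and 0.92 for Acly, but 0.60 for Scd1, 0.58 for Mlxipl, 0.41 for Acacb and 0.26 for Gpam.

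The BIBB-515 mice spanned a narrower range of Fasn. Acaca (r = 0.94, rho = 0.94, adjusted exact p = 0.0111 for r and 0.0333 for rho), Elovl6 (r = 0.95, rho = 0.94, the same adjusted values) and Acacb (r = 0.89, rho = 0.94, adjusted exact p = 0.0127 and 0.0333) followed Fasn, and without mice 8 and 10, the 2 farthest from its median, their r was 0.82, 0.87 and 0.66. Thrsp (r = 0.91, rho = 0.94), Acly (r = 0.91, rho = 0.83) and Scd1 (r = 0.95, rho = 0.83) had adjusted exact values for r of 0.0247, 0.0247 and 0.0422 and for rho of 0.0333, 0.0848 and 0.0848. Without mice 8 and 10, which were the lowest for all 4 genes, r was 0.48 for Thrsp, 0.45 for Acly and -0.12 for Scd1. These values come from 4 mice over a narrower range of Fasn, so they cannot decide whether the relations rested on mice 8 and 10. Gpam had r = 0.75 and rho = 0.49 (adjusted exact p = 0.102 and 0.379), and its r turned to -0.55 without them. Mlxipl did not follow Fasn among BIBB-515 mice (r = -0.27, rho = -0.31, adjusted exact p = 0.631 and 0.564). Its SD of log2 CPM was 0.08 in these mice, beside a median of 0.13 over all tested genes, which left little variation to relate to Fasn. Over all 36 pairs of members, r had a median of 0.81 in control mice (range 0.24 to 1.00) and of 0.91 in BIBB-515 mice (range -0.54 to 0.99). The 8 pairs with Mlxipl lay between 0.24 and 0.75 in control mice and between -0.54 and -0.04 in BIBB-515 mice. Leaving out control mouse 3, the control median over the 36 pairs was 0.59, and the pairs with Mlxipl lay between -0.61 and 0.59, with 6 of 8 above 0.

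**Figure D3:**
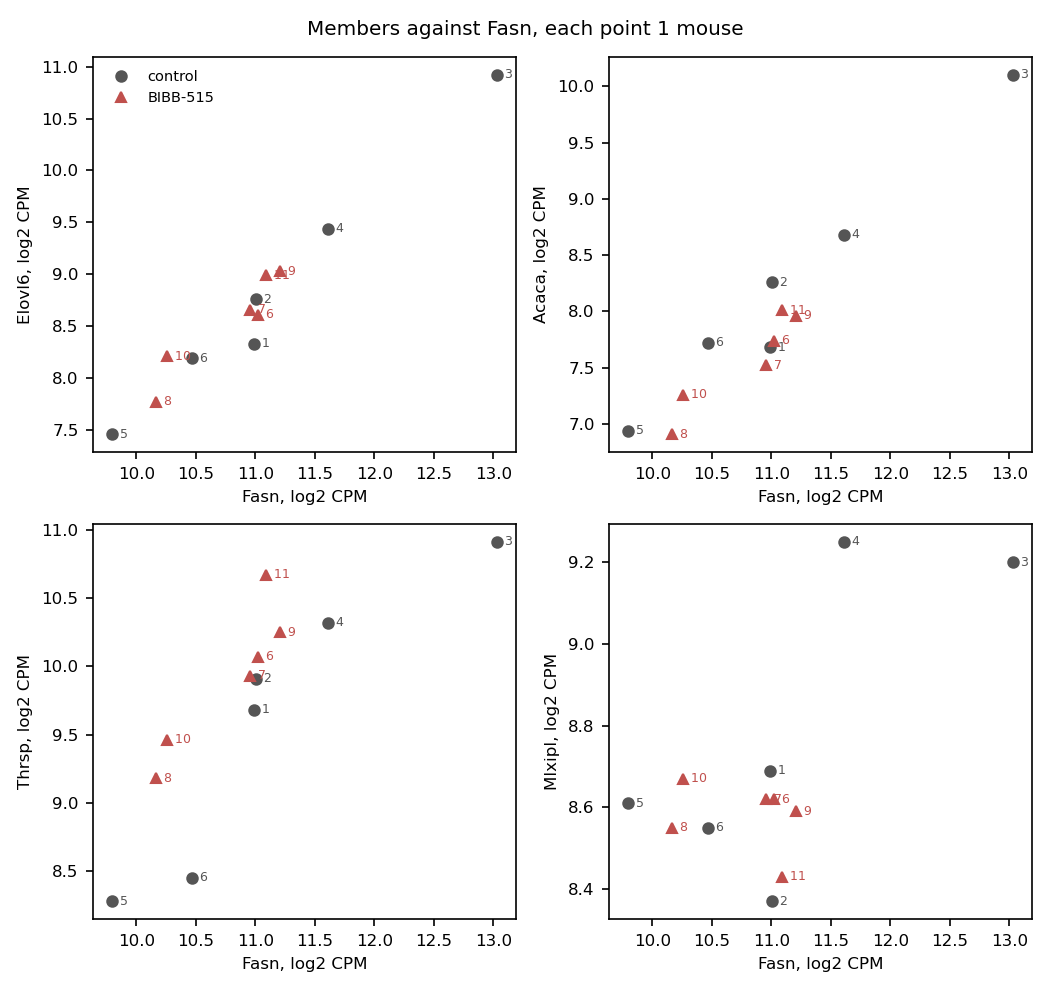
Log2 CPM of Elovl6, Acaca, Thrsp and Mlxipl (vertical axes) against that of Fasn (horizontal axes) in control mice (grey circles) and BIBB-515 mice (red triangles), labelled with the number of the mouse. Elovl6 and Acaca were higher in mice with more Fasn in both diets, Thrsp did so at a higher level relative to Fasn in BIBB-515 mice, and Mlxipl followed Fasn in neither diet at an adjusted exact p under 0.05.

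The level of each was also set against that of Fasn within the same mouse, a measure chosen after the values had been seen and therefore given with no test. Thrsp was the 1 of 8 members whose ratio to Fasn did not overlap between diets. The log2 ratio of Thrsp CPM to Fasn CPM was -1.56 ± 0.42 (SD, n = 6) in control mice and -0.86 ± 0.23 (SD, n = 6) in BIBB-515 mice. It lay between -2.12 and -1.09 in control mice and between -1.03 and -0.41 in BIBB-515 mice, so that all 6 BIBB-515 mice were above all 6 control mice, though the closest mice of the 2 diets differed little. Control mouse 3 had the lowest ratio, and without it the difference between diets was 0.59 in place of 0.70. Over the other 12480 tested genes, the ratio to Fasn left no overlap between diets for 0.473%, and for 0.465% with BIBB-515 the higher. For a gene that does not follow Fasn, this ratio carries the wide spread of Fasn, which makes overlap likely. Thrsp followed Fasn within both diets, so these shares are not a like background for it and do not show how unusual its ratio was. The other 7 members overlapped in this ratio. Gpam differed by 0.40 (0.29 without control mouse 3). Acaca had a log2 ratio to Fasn of -2.92 ± 0.21 (SD, n = 6) in control mice and -3.22 ± 0.16 (SD, n = 6) in BIBB-515 mice, a difference of -0.30 that was also -0.30 without control mouse 3. With other members in place of Fasn, Thrsp did not overlap between diets in its ratio to Acaca and did overlap in its ratios to the remaining 6. Of all 36 pairs of members 3 had no overlap, the third being Elovl6 to Acaca, beside 7.12% of all pairs of tested genes, so that the members as a set were near the background.

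To compare the genes with each other, levels were divided by the summed exon length that the tables give. Per kb, Scd1 was by far the most abundant member in control mice at 5292 ± 2914 CPM per kb (SD, n = 6), followed by Thrsp at 907 ± 585 and Fasn at 300.2 ± 276 CPM per kb. Scd1 exceeded Thrsp, Thrsp exceeded Fasn and Fasn exceeded Acly in each of the 12 mice. Below them, Acly (232 ± 238 CPM per kb), Mlxipl (124 ± 32.4) and Elovl6 (108 ± 111) did not keep their order, since Acly exceeded Mlxipl in 3 of 6 control mice and in 3 of 6 BIBB-515 mice. At the lower end were Acacb (48.3 ± 23.3 CPM per kb), Gpam (44.6 ± 27.9) and Acaca (43.4 ± 39.8). The control means without control mouse 3 were 139 ± 75.1 for Acly, 192 ± 84.5 for Fasn, 64.4 ± 33.0 for Elovl6 and 27.8 ± 12.1 CPM per kb for Acaca (SD, n = 5). In BIBB-515 mice, Scd1 was at 3652 ± 1159, Thrsp at 994 ± 363, Fasn at 185 ± 51.8 and Acaca at 21.7 ± 6.01 CPM per kb (SD, n = 6), and there Gpam exceeded Acaca in 6 of 6 mice, beside 4 of 6 control mice. In every library the 5′ part of Fasn, Acaca, Acacb and Acly held fewer reads per base than the 3′ part. The highest ratios were 0.463, 0.418, 0.449 and 0.748. Levels per kb of summed exon length thus depend on coverage as well as on abundance. In control mice the last exon of Acaca held a mean of 246 CPM over 2092 bases and that of Gpam 74.7 CPM over 1313 bases, so their order was reversed there. Coverage of the 5′ part also differed between libraries, and its part in these levels of long and short transcripts was not tested.

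Counts per exon showed whether a difference ran along the whole gene. For Acly all 29 exons counted (at least 20 reads on average) had a lower mean CPM with BIBB-515, with log2 ratios between -0.97 and -0.82, and for Acaca all 49 exons counted did, between -1.36 and -0.72. The 43 exons of Fasn lay between -0.87 and -0.61, and the 2 exons of Thrsp at 0.12 and 0.14. Without control mouse 3, the median over exons was -0.10 for Acly, -0.30 for Acaca, 0.14 for Fasn and 0.32 for Gpam, and the Fasn exons then ran from 0.37 at the first, 5′ exon to -0.21 at the last, with 11 of 43 below 0. That slope appeared in the same data in which control mouse 4 had few reads in the 5′ part of Fasn, and its source was not tested. Scd1 had log2 ratios between -0.43 and -0.36 in its first 5 exons and of -0.55 in the last, the longest at 3669 bases; without control mouse 3 the first 5 turned to between 0.10 and 0.16 and the last was at -0.24.

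**Figure D4:**
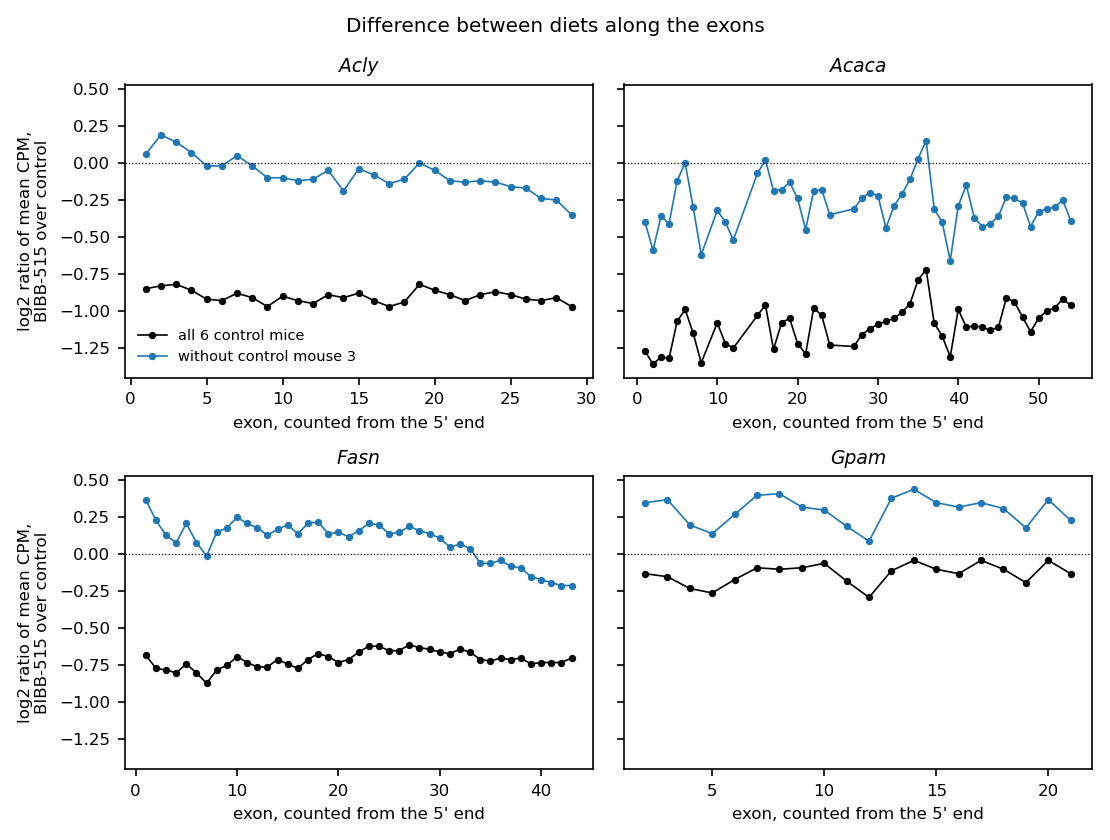
Log2 ratio of mean CPM, BIBB-515 over control, for the exons of Acly, Acaca, Fasn and Gpam that held at least 20 reads on average, counted from the 5′ end, with all control mice (black) and without control mouse 3 (blue). With all mice, the exons of Fasn lay between -0.87 and -0.61, and without control mouse 3 between -0.21 and 0.37.

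The pathway around the members was described with lists of neighboring genes. Of 17 tested genes of other fatty acid synthesis and elongation, 1 rose and 3 fell with BIBB-515 at an FDR under 0.05 in edgeR, with a median log2 fold change of -0.21. In DESeq2 1 rose and 5 fell, and in the fit with 1 surrogate variable 2 rose and 5 fell. Scd2, a paralog of Scd1 that is weakly expressed in liver, rose from 9.30 ± 2.80 CPM to 30.0 ± 3.99 CPM (SD, n = 6 each; log2 fold change 1.69, FDR 9.34e-06 from edgeR). Elovl2 (-0.69, FDR 0.000199), Elovl5 (-0.65, FDR 0.00838) and Fads2 (-0.47, FDR 0.0221), which act on polyunsaturated fatty acids, fell; Fads2 passed in 11 of the 12 fits that left out 1 mouse, the exception being BIBB-515 mouse 11 (FDR 0.0521). In contrast to the members, Scd2 and Elovl2 had groups that did not overlap. The count of genes that rose was 2 without control mouse 3 and 2 without control mouse 4.

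Of 20 tested transcriptional regulators of lipogenesis, 1 rose and 0 fell in edgeR, with 2 at an unadjusted p under 0.05 and a median of 0.03. DESeq2 counted 2 that rose. Insig2, which retains SREBP precursors in the endoplasmic reticulum, rose from 283 ± 74.0 CPM to 532 ± 122 CPM (SD, n = 6 each; log2 fold change 0.91, FDR 0.00412 from edgeR), and the count that rose was 3 without control mouse 2. Srebf1, which encodes SREBP-1c and is named although the rule for named genes did not select it, had 329 ± 81.5 CPM in control mice and 293 ± 55.1 CPM in BIBB-515 mice (SD, n = 6 each; log2 fold change -0.17, FDR 0.507 from edgeR). Its within-diet r with the mean of the members was 0.04 over 12 mice, a description. Of 10 tested targets of carbohydrate response, 3 fell and 0 rose, with 5 at an unadjusted p under 0.05 and a median of -0.36. Among them were Fgf21 (-1.80, FDR 0.000508) and Pklr (-0.89, FDR 0.0194 from edgeR), each called in all 12 fits that left out 1 mouse.

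Of 12 tested genes of glycerolipid synthesis, 1 rose and 0 fell (median -0.03, 4 at an unadjusted p under 0.05). Dgat1, an enzyme of the last step of triglyceride synthesis, rose by a log2 fold change of 0.24 (FDR 0.0310 from edgeR) and lost the call in 6 of the 12 fits that left out 1 mouse, those without control mice 1 and 6 and BIBB-515 mice 7, 9, 10 and 11 (highest FDR 0.0691). The count that rose was 2 without control mouse 3, and 1 and 2 genes fell without control mice 2 and 5. DESeq2 counted 1 that fell, and the fit with 1 surrogate variable 2 that rose and 2 that fell. Of 7 tested genes of NADPH supply, which gives the pathway its reducing power, 1 rose (median -0.01): Pgls of the pentose phosphate pathway, with 0.23 (FDR 0.0446 from edgeR), a call that held in 3 of the 12 fits, those without control mice 4 and 5 and BIBB-515 mouse 6 (highest FDR in the others 0.0988). With 1 surrogate variable, 2 genes of this list rose and 1 fell. Of 22 tested genes of cholesterol synthesis and its control, 7 rose and 0 fell, with 13 at an unadjusted p under 0.05 and a median of 0.57. Among them were Tm7sf2 (0.79), Cyp51 (1.17) and Mvk (1.12), and without control mouse 3 the number that rose was 14. DESeq2 counted 10 genes that rose, limma-voom 11 and the fit with 1 surrogate variable 14. Of the 7, 1 gene passed in 1 of the 12 fits that left out 1 mouse, the one without control mouse 3, and another in 7, not in those without control mouse 6 and BIBB-515 mice 6, 7, 8 and 11 (highest FDR 0.0969 and 0.0576). All lists are read against 896 genes that rose and 809 that fell among the 12481 tested, with a median of -0.01.

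As fasting turns lipogenesis down, genes of the fasted liver are given beside the members. Of 11 tested, 3 fell with BIBB-515 and 0 rose (median -0.51), namely Fgf21, Ppargc1a (-0.79, FDR 0.0139) and Pck1 (-0.56, FDR 0.0188), each in all 12 fits that left out 1 mouse. The summed level of the list was lowest at 7593 CPM, in control mouse 3, with a median of 10942 and a highest value of 13227 CPM in control mice, and was 7455, 8107 and 8747 CPM in BIBB-515 mice. Control mouse 3 was thus the highest for the members and the lowest control mouse for this list. Of 13 tested clock genes, 0 were called in edgeR, DESeq2 or limma-voom, with 2 at an unadjusted p under 0.05 in edgeR (median -0.11). The list summed to 466, 603 and 770.4 CPM in control mice and 498, 560.1 and 683 CPM in BIBB-515 mice (lowest, median, highest). The most abundant were Tef (-0.11), Nr1d1 (0.11), Nr1d2 (-0.17) and Per1 (-0.34), and 1 gene rose without control mouse 2 and 1 fell without control mouse 4. The part of either list in the members' spread was not tested.

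Markers of hepatocytes and of other cells were checked in the same libraries. All 8 hepatocyte markers were tested, the most abundant being Alb, and 3 fell: Alb (-0.40, FDR 0.0129), Ttr (-0.49, FDR 0.00391) and Fgb (-0.33, FDR 0.0376), the last in 3 of the 12 fits that left out 1 mouse, those without control mice 2, 3 and 4 (highest FDR in the others 0.0833). Their summed level was lowest at 150293 CPM, in control mouse 3, had a median of 162921 CPM and was highest at 171875 CPM in control mice, and was 118787, 130228 and 133390 CPM in BIBB-515 mice. Of the 7 adipocyte markers 1, Fabp4, was tested (0.09); 0 were called in edgeR, DESeq2 or limma-voom, also at an unadjusted p under 0.05. The defining markers Adipoq, Plin1 and Retn were at mean levels of at most 0.0135 CPM in either diet, Lep was at 0 counts, and the list summed to 6.87, 8.67 and 11.5 CPM (lowest, median, highest) in control mice and 6.99, 9.26 and 11.7 CPM in BIBB-515 mice, mostly Fabp4. The control mouse with the highest sum was control mouse 3, and Fabp4 had a within-diet r of 0.88 with the mean of the members over 12 mice, a description. By the same measure the median was -0.68 over the 8 hepatocyte markers, 0.62 over 7 stellate and endothelial markers and -0.32 over 5 macrophage and leukocyte markers, beside -0.05 over 8460 genes. The hepatocyte markers ran from -0.93 for Cyp2e1 to 0.32 for Cps1, both named after the values were seen, with Alb at -0.21 and Ttr at -0.01. The part of these markers in the members' values was not tested. Of 6 tested macrophage and leukocyte markers 0 were called in edgeR, DESeq2 or limma-voom, also at an unadjusted p under 0.05. The list summed to 285, 323 and 432 CPM (lowest, median, highest) in control mice and 280.2, 367 and 457 CPM in BIBB-515 mice, mostly Clec4f. Of 5 bile duct markers 0 were called in edgeR and limma-voom and 1 in DESeq2, with 1 at an unadjusted p under 0.05 in edgeR, and 1 gene rose without BIBB-515 mouse 7 and without control mouse 6. They summed to 62.6, 94.4 and 116 CPM in control mice and 91.9, 117 and 154 CPM in BIBB-515 mice, mostly Spp1. Of 8 stellate and endothelial markers 2 fell, Lrat (-0.81, FDR 0.0202) and Dcn (-0.27, FDR 0.0398), Dcn in 4 of the 12 fits, those without control mice 2 and 5 and BIBB-515 mice 6 and 11 (highest FDR in the others 0.0906). They summed to 337, 409 and 469 CPM in control mice and 335, 358 and 417 CPM in BIBB-515 mice, mostly Dcn. Of the 7 pancreas and muscle markers 1 was tested, Cela1, which fell by 0.56 on the log2 scale (FDR 0.0365 from edgeR) and passed in 3 of the 12 fits, those without control mice 1, 2 and 3 (highest FDR in the others 0.0790). That list summed to 10.1, 12.2 and 22.0 CPM in control mice, lowest in control mouse 3, and 9.17, 9.43 and 10.2 CPM in BIBB-515 mice, mostly Cela1. The part of any cell type in the members' values was not tested beyond these levels.

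The genes most like the members were sought by the Pearson r of within-diet log2 CPM with the mean of the members' centred and scaled values over 12 mice, among 8460 genes whose log2 CPM averaged 3 or more. Acaca, Elovl6, Acly and Fasn took the first 4 ranks (r = 0.98 to 0.99), partly because they enter that mean, while Acacb ranked 88, Gpam 296 and Mlxipl 849. The 8 genes outside the members with the highest r were Lactb2 and Tkt (0.97), BC021614, Vkorc1l1 and Pklr (0.96), and Pdhb, Tbc1d24 and Col4a2 (0.95). Tkt encodes transketolase, Pklr the liver pyruvate kinase and Pdhb a subunit of pyruvate dehydrogenase, enzymes of carbohydrate breakdown. In the absence of control mouse 3 these 8 genes had r between 0.91 and 0.96. With all mice 2 of the 8 were called in edgeR, both lower with BIBB-515: Pklr (-0.89, FDR 0.0194), and BC021614 (-0.82, FDR 0.0258), which lost the call without control mouse 4 and without BIBB-515 mice 8 and 10 (highest FDR 0.0607). Tkt (0.36) was not called with all mice in edgeR, but was higher without control mouse 3 (0.53, FDR 0.00304) and in the fit with 1 surrogate variable (0.40, FDR 0.00175). The log2 fold change was -0.07 for Lactb2, 0.02 for Vkorc1l1, -0.22 for Pdhb, -0.20 for Tbc1d24 and 0.15 for Col4a2, not called in that test or with any 1 mouse left out. Over all 8460 genes 221 had an r above 0.8, beside 7 of the 9 members, which enter the mean, 5 of 7 genes of NADPH supply (median r 0.90) and 6 of 22 genes of cholesterol synthesis. Of the other pathway lists, 4 of 16 genes of other fatty acid synthesis and elongation and 3 of 9 targets of carbohydrate response did so. The counts were 1 of 11 for glycerolipid synthesis and 0 of 19 for the regulators.

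Promoters are shown for Fasn, Thrsp and Acly, members whose levels were related across mice. Of these, Thrsp had a ratio to Fasn that did not overlap between the diets, a measure chosen after the values had been seen and not tested. RefSeq windows (GRCm38.p6, the coordinates of mm10) of 250 bases before to 50 after a gene's start were matched for 8 of the 9 members, 10 windows in all. They were searched on both strands for the E-box CACGTG, the sterol regulatory element TCACNCCAC, the CCAAT box and the GC box GGGCGG, of which CCAAT overlaps its own reverse complement in CCAATTGG. The CCAAT box was in 6 of the 10 windows, those of Acacb, Acly, Fasn, Gpam, Mlxipl and Thrsp, and in 37.4% of all 32851 promoter windows; the GC box was in 3 of 10 (Acly, Gpam and Mlxipl) and 35.7% of all. The E-box and the sterol regulatory element were each in 1 of 10, in separate windows of Mlxipl, and in 7.15% and 1.24% of all windows. Below are the 250 bases before the start, 5′ to 3′ on the strand of the gene, with matches in capitals: in Fasn (chr11:120824548-120824797, minus strand) CCAAT boxes that begin 90, 62 and 59 bases before the start, the last 2 overlapping, in Thrsp (chr7:97417551-97417800, minus strand) CCAAT boxes 79 and 52 bases before the start, and in Acly (chr11:100528001-100528250, minus strand) GC boxes 117, 88, 76 and 27 bases before the start. A match is a description of letters only, and where there is no match nothing follows for any factor.
Fasn: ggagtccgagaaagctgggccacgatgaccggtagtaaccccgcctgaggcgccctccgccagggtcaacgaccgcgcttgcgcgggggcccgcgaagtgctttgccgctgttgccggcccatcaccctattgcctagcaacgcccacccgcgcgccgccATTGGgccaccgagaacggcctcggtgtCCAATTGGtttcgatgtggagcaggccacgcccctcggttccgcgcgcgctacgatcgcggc
Thrsp: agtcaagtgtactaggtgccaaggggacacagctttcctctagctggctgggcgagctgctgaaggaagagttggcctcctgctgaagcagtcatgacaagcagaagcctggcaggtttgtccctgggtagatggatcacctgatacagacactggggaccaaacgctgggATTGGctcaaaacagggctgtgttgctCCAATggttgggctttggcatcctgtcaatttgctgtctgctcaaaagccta
Acly: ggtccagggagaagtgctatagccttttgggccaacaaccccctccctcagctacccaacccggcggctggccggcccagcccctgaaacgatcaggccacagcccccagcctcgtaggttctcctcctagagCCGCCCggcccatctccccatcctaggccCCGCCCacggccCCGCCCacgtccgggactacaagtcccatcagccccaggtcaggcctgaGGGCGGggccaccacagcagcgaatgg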

How the data were processed

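Liver RNA of 12 mice was sequenced and aligned by the authors to mm10 with STAR 2.5.3a, and reads were counted with featureCounts of Subread 1.6.3, per the submitters' processing notes. The deposited values are raw counts per gene symbol over the exons of a gene; per the file headers, no strand option was set and reads that map to several places were not counted, so that reads of near-identical copies are lost and antisense partners cannot be told apart. A second set of deposited counts, for primary alignments, served as an alternative and held at most 0.00624% more reads for any member. Counts per exon were used for the exon profiles. Within a diet, no pair of libraries agreed within sampling noise (lowest chi-square per degree of freedom 12.7).

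Counts were tested in R 4.3.3 with edgeR 4.0.16 (TMM, quasi-likelihood test, diet alone, genes of 1 CPM or more in 2 or more mice, FDR 0.05 over all tested genes). Standard errors are the absolute log2 fold change divided by the square root of F. Alternatives were DESeq2 1.42.0, limma-voom (limma 3.58.1), upper-quartile scaling, no filter, a filter over 6 mice, primary alignments, a robust fit, 1 surrogate variable (sva 3.50.0) and each mouse left out. CPM use TMM library sizes, and single values were compared by exact permutation.

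Named genes are the 9 members; from each list up to 4 genes with FDR under 0.05 by lowest p, or, with none, up to 4 by highest mean CPM; and the 8 genes most like the members. The members and lists were chosen with earlier results of these data known. Ratios between members and values without control mouse 3 in the covariation were added after the values had been seen. Protein sequences were not used here, and of the members Scd1 had no promoter match.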

Additional observations from a re-analysis of the deposited data

Results flagged for a closer look

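In 20 groups of 6 mice, the 9 members and their summed level in each diet, the distance between the most extreme mouse and the next was divided by the range of the group and set against the 95% critical value of Dixon for 6 values; chance passes about 1 in 20 groups, or 1 here if the groups were independent, which they are not. Each of the groups past it was of control mice, with control mouse 3 as the highest. The share was 0.718 for Acly, 0.707 for Acaca, 0.707 for Elovl6, 0.700 for Fasn and 0.697 for Gpam on the CPM scale, and 0.628 for the summed level of the members. On the log2 scale the share was between 0.428 and 0.526 for these 5 genes, below the limit. No BIBB-515 group passed, the largest share for a gene there being 0.398, for Thrsp. Control mouse 3 had a total count of 22867565, just above the lowest of its group, 22764819, and its 5′ to 3′ coverage of Fasn, 0.448, was inside the range of the other mice. The cause of its high levels was not tested.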

How the results depend on the processing

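Over the 9 members' fold changes, the counts of members called and the count of all genes called, 230 values under the alternatives kept their direction and side of the threshold or stayed within 1.5 times, and the others are named here. With 1 surrogate variable, Acly (-0.51), Acaca (-0.67) and Acacb (-0.46) passed an FDR of 0.05 in edgeR, so that 3 members were called lower in place of 0; the covariate followed the members within diets (r = 0.96). With limma-voom, Gpam turned from -0.13 to 0.04, and the cause was not tested. With each of the 12 mice left out in turn, the log2 fold change lay between -0.91 and 0.03 for Elovl6, between -0.05 and 0.48 for Thrsp and between -0.25 and 0.28 for Gpam, the signs that turned being those without control mouse 3 for Elovl6 and Gpam and without control mice 5 and 6 or BIBB-515 mouse 11 for Thrsp. The other ranges were -1.12 to -0.18 for Acly, -1.18 to -0.35 for Acaca, -0.67 to -0.28 for Acacb, -0.88 to -0.05 for Fasn, -0.67 to -0.20 for Scd1 and -0.31 to -0.12 for Mlxipl, with no sign turned. Without the 2 mice farthest from the median of Fasn, the r with Fasn turned to -0.56 and -0.55 for Gpam in control and BIBB-515 mice and to -0.12 for Scd1 in BIBB-515 mice; these rest on 4 mice each. The number of genes called over all, 1705, ran from 1199 without BIBB-515 mouse 10 to 2407 with 1 surrogate variable. Of the named genes of other lists, Alb, Fgb and Pgls lost their calls with no filter on low counts, Dcn with upper-quartile scaling and with no filter, and Cela1 with limma-voom. No paired analysis was possible because the diets share 1 replicate number in the labels. Each member had at least 1888 counts in every library, so counting error was small beside the spread between mice.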
